A study of Mus musculus with 2 samples.

Results

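The 9 genes described here are *Tgfb1*, *Tgfbr1*, *Tgfbr2*, *Smad2*, *Smad3*, *Smad4*, *Smad7*, *Ski* and *Skil*, out of 21887 protein-coding genes of the RefSeq table of mouse assembly GRCm38. The set was chosen on the height of 1 peak, at the end of *Ski*, which stands in the IL-4 list alone, so that peak is described and not tested. For each gene, all peaks with a summit in the gene body or within 50 kb of either annotated end were taken. This gave 204 peaks of the IL-4 list and 77 of the untreated list, out of 240661 and 149349. The 9 windows did not overlap each other.

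The measurement was CUT&Tag, in which an antibody brings a transposase to chromatin and the DNA beside it is tagged for sequencing. The antibody was raised against PHLPP1, a protein phosphatase known for acting on the kinase AKT. Mouse bone marrow-derived macrophages, grown with the growth factor M-CSF at 20 ng/ml, were either left untreated or given interleukin-4 (IL-4) at 20 ng/ml for 4 h. There was 1 library per group. Both were taken as wild-type from the series' design, and no strain or age is given in the labels. Differences between the lists therefore have no replicate check, and values are set side by side without a test. No library made with a control antibody and none from PHLPP1-deficient cells was analysed here.

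Transforming growth factor β (TGF-β), the product of *Tgfb1*, binds the type II receptor encoded by *Tgfbr2*, which then activates the type I receptor encoded by *Tgfbr1*. The active type I receptor phosphorylates SMAD2 and SMAD3, which join SMAD4 and enter the nucleus to control target genes. SMAD7 is an inhibitory SMAD that acts on the type I receptor, and SKI and its relative SnoN (*Skil*) are co-repressors that bind the SMAD complex. *Smad7* and *Skil* are themselves well-known targets of the pathway. In macrophages TGF-β is known for dampening inflammatory responses.

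Peak strength is given as the number of DNA fragments at the summit, solved from the authors' deposited fold enrichment and p-value, with an exact Poisson 95% interval that covers counting error only. The authors' −log10 q is given beside it as the peak's own value within its list. The libraries differ in background. Local background bottomed out at 0.936 fragments without IL-4 and 0.643 with it, 1.46 times apart, and the fewest fragments at a listed summit were 4 and 3. Among macrophage marker genes, *Fcgr1*, *Cebpa*, *Cd68*, *Spi1* and *Mertk* had a gene-end peak in at least 1 list, and *Adgre1*, *Csf1r*, *Itgam* and *Lyz2* had none in either. The peak of *Cd68* reached q 0.05, and among markers of other cell types so did that of *Siglech*, of the dendritic cell list. The lists for erythroid, stromal, B, T and NK cells and neutrophils had none at that threshold, and 79.2% of all protein-coding genes had none. Without that threshold, the genes with no gene-end peak in either list were 0 of 4 for dendritic cells and 1 of 6 for T and NK cells. They were 2 of 4 for B cells, 4 of 6 for neutrophils, 3 of 5 for stromal and 3 of 4 for erythroid cells, against 41.8% of all genes. Nothing about cell type is read from these lists. A peak at a gene end is no measure of that gene's expression.

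A gene-end peak here has its summit at most 1 kb from the start or the end of the annotated gene, on either side. With IL-4, 8 of the 9 genes had one, all but *Tgfbr2*, and over all protein-coding genes 49.3% did. In the untreated list, *Tgfb1*, *Tgfbr1*, *Smad2* and *Skil* had one, 4 of 9, against 22.7% of all genes. *Ski*, *Smad3*, *Smad4* and *Smad7* were thus IL-4-only, a word used here for the lists and not for a tested change (4 of 9, 35.5% of all genes), and the 4 genes named before them had peaks in both lists (13.8% of all genes). No member was in the untreated-only class, which held 8.93% of all genes, and *Tgfbr2* was in neither list, like 41.8% of all genes. The choice of the genes used the *Ski* peak, so nothing is read from its part in these counts.

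**Figure D1:**
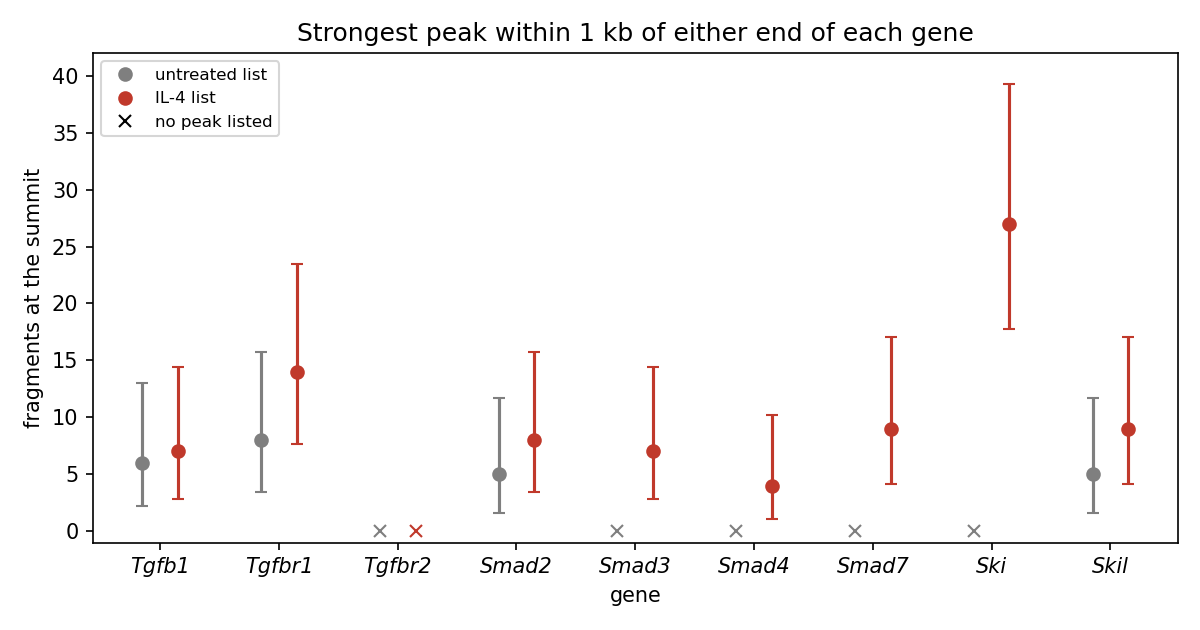
Fragments at the summit (vertical axis) of the strongest peak within 1 kb of either end of each gene (horizontal axis), untreated in grey and IL-4 in red. Bars are exact Poisson 95% intervals, for counting error only, and a cross marks a gene with no such peak listed. *Ski* stood highest with 27 fragments after IL-4, *Tgfbr1* followed with 14 and 8 in the 2 lists, and *Tgfbr2* had none. The 2 values of *Tgfb1* are at opposite ends of the gene.

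The promoters of the type I receptor, of *Smad3* and of *Tgfb1* carried IL-4 peaks, and the promoter of the type II receptor carried none. They are printed to show what DNA lay under these peaks, with *Tgfbr2* for comparison and with *Bckdha*, a neighbour of *Tgfb1* whose promoter held the strongest peak of that window. Each is the 250 bases before the annotated start of transcription, 5′ to 3′ on the gene's strand, from RefSeq and build GRCm38.p6. Capitals mark, on either strand, the GC box with the letters GGGCGG. They also mark the CCAAT box, searched as those letters. The core of the SMAD binding site, CAGAC, is marked in the same way.
Tgfbr1, plus strand, chr4:47352972-47353221:
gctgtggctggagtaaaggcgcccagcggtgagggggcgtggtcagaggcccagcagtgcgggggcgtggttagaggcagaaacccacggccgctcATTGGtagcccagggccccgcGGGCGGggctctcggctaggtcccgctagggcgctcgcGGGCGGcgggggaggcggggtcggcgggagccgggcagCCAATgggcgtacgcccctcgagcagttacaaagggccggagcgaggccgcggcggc
Smad3, minus strand, chr9:63757995-63758244:
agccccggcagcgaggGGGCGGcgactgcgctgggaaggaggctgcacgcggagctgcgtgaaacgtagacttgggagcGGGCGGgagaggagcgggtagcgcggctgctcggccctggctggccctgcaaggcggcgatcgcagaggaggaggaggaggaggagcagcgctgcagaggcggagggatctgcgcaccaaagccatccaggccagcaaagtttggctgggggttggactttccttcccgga
Tgfb1, plus strand, chr7:25686752-25687001:
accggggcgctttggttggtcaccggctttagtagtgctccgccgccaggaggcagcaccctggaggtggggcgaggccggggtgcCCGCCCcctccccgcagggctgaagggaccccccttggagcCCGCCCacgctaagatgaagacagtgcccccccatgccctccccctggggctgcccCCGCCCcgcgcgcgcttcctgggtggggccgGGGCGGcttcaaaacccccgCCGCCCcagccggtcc
Tgfbr2, minus strand, chr9:116175364-116175613:
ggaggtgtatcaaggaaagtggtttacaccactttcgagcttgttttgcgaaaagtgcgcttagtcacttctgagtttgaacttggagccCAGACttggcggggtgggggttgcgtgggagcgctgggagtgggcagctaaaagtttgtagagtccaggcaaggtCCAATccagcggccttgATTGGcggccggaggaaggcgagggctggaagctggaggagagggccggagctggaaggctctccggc
Bckdha, minus strand, chr7:25658762-25659011:
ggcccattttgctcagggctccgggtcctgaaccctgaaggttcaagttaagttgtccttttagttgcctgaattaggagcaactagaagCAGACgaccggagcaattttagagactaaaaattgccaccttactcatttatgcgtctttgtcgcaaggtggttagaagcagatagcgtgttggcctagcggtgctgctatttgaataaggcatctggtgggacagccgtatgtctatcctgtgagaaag

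The sequence table held 5 of the 9 genes, with 6 such stretches in all, since *Tgfbr1* has a downstream start as well. IL-4 peaks overlapped 3 of the 6, and an untreated peak overlapped 1, while over 21263 stretches of protein-coding genes the shares were 23.9% and 5.39%. In *Tgfbr1* the IL-4 peak covered all 250 bases, with its summit at position 107 counted from the 5′ end. The untreated peak covered 201 of them, with its summit at position 92. In *Smad3* the IL-4 peak also covered the whole stretch, with its summit at position 168, and in *Tgfb1* it covered 241 bases, with its summit at position 146. Both summits in the *Tgfbr1* stretch lay near the first CCAAT box, at position 97 on the minus strand, and a GC box begins at position 118. The GC boxes of *Smad3* begin at positions 17 and 80, and those of *Tgfb1* on either side of its summit at 128 and 184. Distances from summits to motifs were not tested. At *Bckdha* the IL-4 peak covered all 250 bases and the untreated peak 234, with summits at positions 108 and 133, and the 1 SMAD core there begins at position 91.

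All 3 member stretches with a peak were GC-rich. The GC content was 74.8% for *Tgfbr1*, 69.2% for *Smad3* and 75.2% for *Tgfb1*, against a median of 55.6% over all stretches (quartiles 47.2 and 64.0). *Tgfbr2* had 58.4% and the downstream start of *Tgfbr1* 52.8%, both without a peak. *Bckdha*, with a peak in both lists, had 47.6%. *Ski* had the highest GC content of the 6 at 87.6%, with 53 CpG dinucleotides where the median stretch had 10, but its peak lay farther upstream and did not reach this stretch. A GC box was found in 4 of the 6 stretches, with 5 matches in *Tgfb1*, 5 in *Ski*, 2 in *Tgfbr1* and 2 in *Smad3*, and in 42.6% of all stretches. A CCAAT box was found in the upstream stretch of *Tgfbr1* and in *Tgfbr2*, 2 of 6, against 35.4% of all. The SMAD core was found in *Tgfbr2* and at the downstream start of *Tgfbr1*, 2 of 6, against 40.9%. An ETS core (CGGAAG), an AP-1 site (TGANTCA), a CRE core (TGACG) and a STAT6 palindrome (TTC and GAA with 4 bases between) were in none of the 6, and in 17.1%, 6.13%, 20.2% and 5.39% of all stretches. Both strands were searched, and overlapping matches counted. A match is a match of letters and not a bound site.

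*Tgfb1*, the ligand gene, lies on chromosome 7 from 25687002 to 25705077 and had the strongest surroundings but weak peaks of its own. At its start lay an IL-4 peak of 7 fragments (interval 2.81 to 14.4, −log10 q 0.754), from 25686761 to 25687528, with the summit 105 bp upstream. That summit is also within 1 kb of an end of *B9d2*. The local background there was 1.79 fragments, the highest at any own-end peak of the 9 genes, and the fold enrichment was 2.87. The untreated list had no peak at this end. Near the 3′ end the untreated list had 6 fragments (2.202 to 13.1) and the IL-4 list 5 (1.62 to 11.7), with summits 209 bp apart and 17 bp of overlap. No peak at either end of *Tgfb1* reached q 0.05 in either list. Inside the gene, 2424 bp from its start, IL-4 cells had a peak of 10 fragments (interval 4.80 to 18.4, −log10 q 2.35), and 1300 bp past the 3′ end they had one of 9 fragments at 2.44.

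Both IL-4 peaks of the *Tgfb1* window with a −log10 q of at least 5 stood at other genes. The strongest, an IL-4 peak at 25658704 to 25659171 on the same chromosome, had 24 fragments (15.4 to 35.7) and a −log10 q of 18, and its summit lay 28098 bp from *Tgfb1*. It lies at the neighbouring starts of *Bckdha*, encoding a subunit of the branched-chain keto acid dehydrogenase, and *Exosc5*, encoding a subunit of the RNA exosome. The untreated list had 10 fragments (4.80 to 18.4) at the same place, at a −log10 q of 3.41, with a summit 25 bp away. The fold enrichments were 11.6 with IL-4 and 5.68 without. The second, with 18 fragments (10.7 to 28.5; −log10 q 8.69), lay 6101 bp from *Tgfb1* at an end of *B9d2*, with no overlapping untreated peak. A further IL-4 peak, of 7 fragments, lay 19108 bp away at the other end of *Exosc5*. These 3 summits lay within 1 kb of an end of a gene other than *Tgfb1*. The IL-4 peak next in −log10 q to the 18-fragment one, of 10 fragments (3.64), lay 49921 bp past the 3′ end of *Tgfb1*. It had no gene end within 1 kb of its summit, but it overlapped a 250-base promoter stretch of *Hnrnpul1*, and it also overlapped an untreated peak.

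The receptor genes differed from each other. *Tgfbr1*, on chromosome 4 from 47353222 to 47414926, had a peak at its start in both lists. The IL-4 peak, from 47352831 to 47353423, had 14 fragments (7.65 to 23.5) at a −log10 q of 7.61. The untreated peak, from 47352934 to 47353172, had 8 fragments (3.45 to 15.8) at 2.08. The summits were 15 bp apart, and the fragment intervals of the 2 libraries overlap. Relative to the local background, the fold enrichments were 7.54 with IL-4 and 4.65 without. A second IL-4 peak of 6 fragments lay 455 bp inside the gene. *Tgfbr1* ranked 228 by −log10 q among the 10790 genes with an IL-4 gene-end peak. It was the only member with gene-end peaks past q 0.05 in both lists, a class that held 1.5% of all genes. Of the other *Tgfbr1* peaks, one with IL-4 lay 18697 bp inside the gene with 7 fragments, and one without IL-4 lay 9151 bp past its 3′ end with 8.

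*Tgfbr2*, on chromosome 9 from 116087695 to 116175363, had the most peaks of the 9 genes, 33 with IL-4 and 11 without, and none at either end. The IL-4 summits nearest to its start lay 1990 and 2321 bp upstream, with 5 fragments each at a −log10 q of 1.26. Its strongest peak was in the untreated list, inside the gene 34327 bp from the start, with 10 fragments (4.80 to 18.4) at a −log10 q of 3.41. No IL-4 peak overlapped it. The nearest IL-4 summit lay 1693 bp away and had 6 fragments at a −log10 q of 1.65, and none of the 33 IL-4 peaks had more than 6 fragments. In each of the other 8 genes the strongest peak by −log10 q was in the IL-4 list. The 2 lists are not on 1 scale in this value, since 6 fragments over the lowest background gave 1.84 with IL-4 and 1.11 without.

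The receptor-activated SMAD genes had moderate IL-4 peaks at their ends. *Smad3*, on chromosome 9 from 63646766 to 63757994, had an IL-4 peak (7 fragments, 2.81 to 14.4; −log10 q 2.48) from 63757712 to 63758275, with its summit 83 bp upstream of the start. A second one of 6 fragments lay 526 bp upstream. The nearest untreated summit was 26581 bp away. *Smad2*, on chromosome 18 from 76241090 to 76311748, had IL-4 peaks of 8 fragments (3.45 to 15.8) and 9 fragments (4.12 to 17.1), with summits 706 and 1220 bp inside its lower-coordinate end and −log10 q of 2.48 and 3.06. The second of them is just outside the 1 kb limit. The untreated list had 5 fragments (1.62 to 11.7) 504 bp on the other side of that end, so the *Smad2* peaks of the 2 lists did not overlap, and their summits were 1210 bp apart. *Smad2* also had untreated peaks of 7 and 8 fragments inside the gene, the second 1142 bp from its other end.

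*Smad4*, the partner shared by the receptor-activated SMADs, had the fewest fragments in its IL-4 gene-end peak of the 8 genes that had one. On chromosome 18 from 73634790 to 73703791, it had 4 fragments (1.09 to 10.2) at a −log10 q of 0.753, 264 bp outside its higher-coordinate end. Its strongest peak by −log10 q lay 9202 bp outside the other end, with 6 fragments after IL-4 and 5 in an overlapping untreated peak. Untreated peaks of 6 fragments also lay 17620 bp outside that end and 27357 bp inside it, so by fragments neither list stood higher at *Smad4*. *Smad7*, the inhibitory SMAD gene, on chromosome 18 from 75367365 to 75395935, had a stronger one. It had 9 fragments (4.12 to 17.1) at a −log10 q of 4.35, from 75367298 to 75367534, with the summit 34 bp inside the lower-coordinate end. This was the closest to a gene end of all IL-4 peaks at the 9 genes. The nearest untreated summit to it was 12063 bp away. The *Smad7* body, from end to end, held 5 IL-4 peaks and 0 untreated peaks.

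Of the co-repressor genes, *Ski* had 1 high peak and *Skil* several low ones. *Ski* lies on chromosome 4 from 155154075 to 155222535 on the minus strand, and its IL-4 peak, from 155223070 to 155223565, had its summit 729 bp upstream of the annotated start. It had 27 fragments (17.8 to 39.3) over a local background of 1.43, a fold enrichment of 11.5 and a −log10 q of 19.5, and ranked 9 among the 10790 genes. The nearest untreated summit was 11630 bp away, with 4 fragments. The other 22 IL-4 peaks around *Ski* had at most 8 fragments, and none of the 9 untreated peaks there had more than 6 or reached q 0.05.

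*Skil*, on chromosome 3 from 31095058 to 31122923, had IL-4 peaks on both sides of its lower-coordinate end. The first had 9 fragments (4.12 to 17.1) at a −log10 q of 2.97, 302 bp outside the gene and 649 bp wide, and the second 7 fragments at 1.84, 323 bp inside it. The untreated list had an overlapping peak (5 fragments, 1.62 to 11.7, −log10 q 0.737) with its summit 54 bp from the first. The fold enrichments at this site were 4.92 with IL-4 and 3.10 without. The untreated list also had a peak of 4 fragments at the other end of *Skil*, where the IL-4 list had none within 1 kb. A further 4 IL-4 peaks of 6 fragments each, at −log10 q of 1.75 to 1.84, lay 24225 to 37255 bp past that end, in or near the neighbouring gene *Cldn11*.

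How far the untreated list could show a peak depends on the site. If the background at each IL-4 summit is scaled by the 1.46-fold higher background of the untreated library, a peak at the *Smad3*, *Smad4* or *Smad7* site would have passed p 0.01 there with 4 fragments. The IL-4 counts at these sites were 7, 4 and 9. These counts and their intervals were not scaled between the libraries, since total read depth was not used. Unscaled, the IL-4 peak of *Smad4* had no more fragments than the untreated library would have needed. Nothing is read from its absence from that list. The lower bounds of the unscaled intervals of *Smad3* (2.81) and *Smad4* (1.09) lay below 4 fragments, and that of *Smad7* was 4.12. Whether the same enrichment would give more fragments in the untreated library was not tested.

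**Figure D2:**
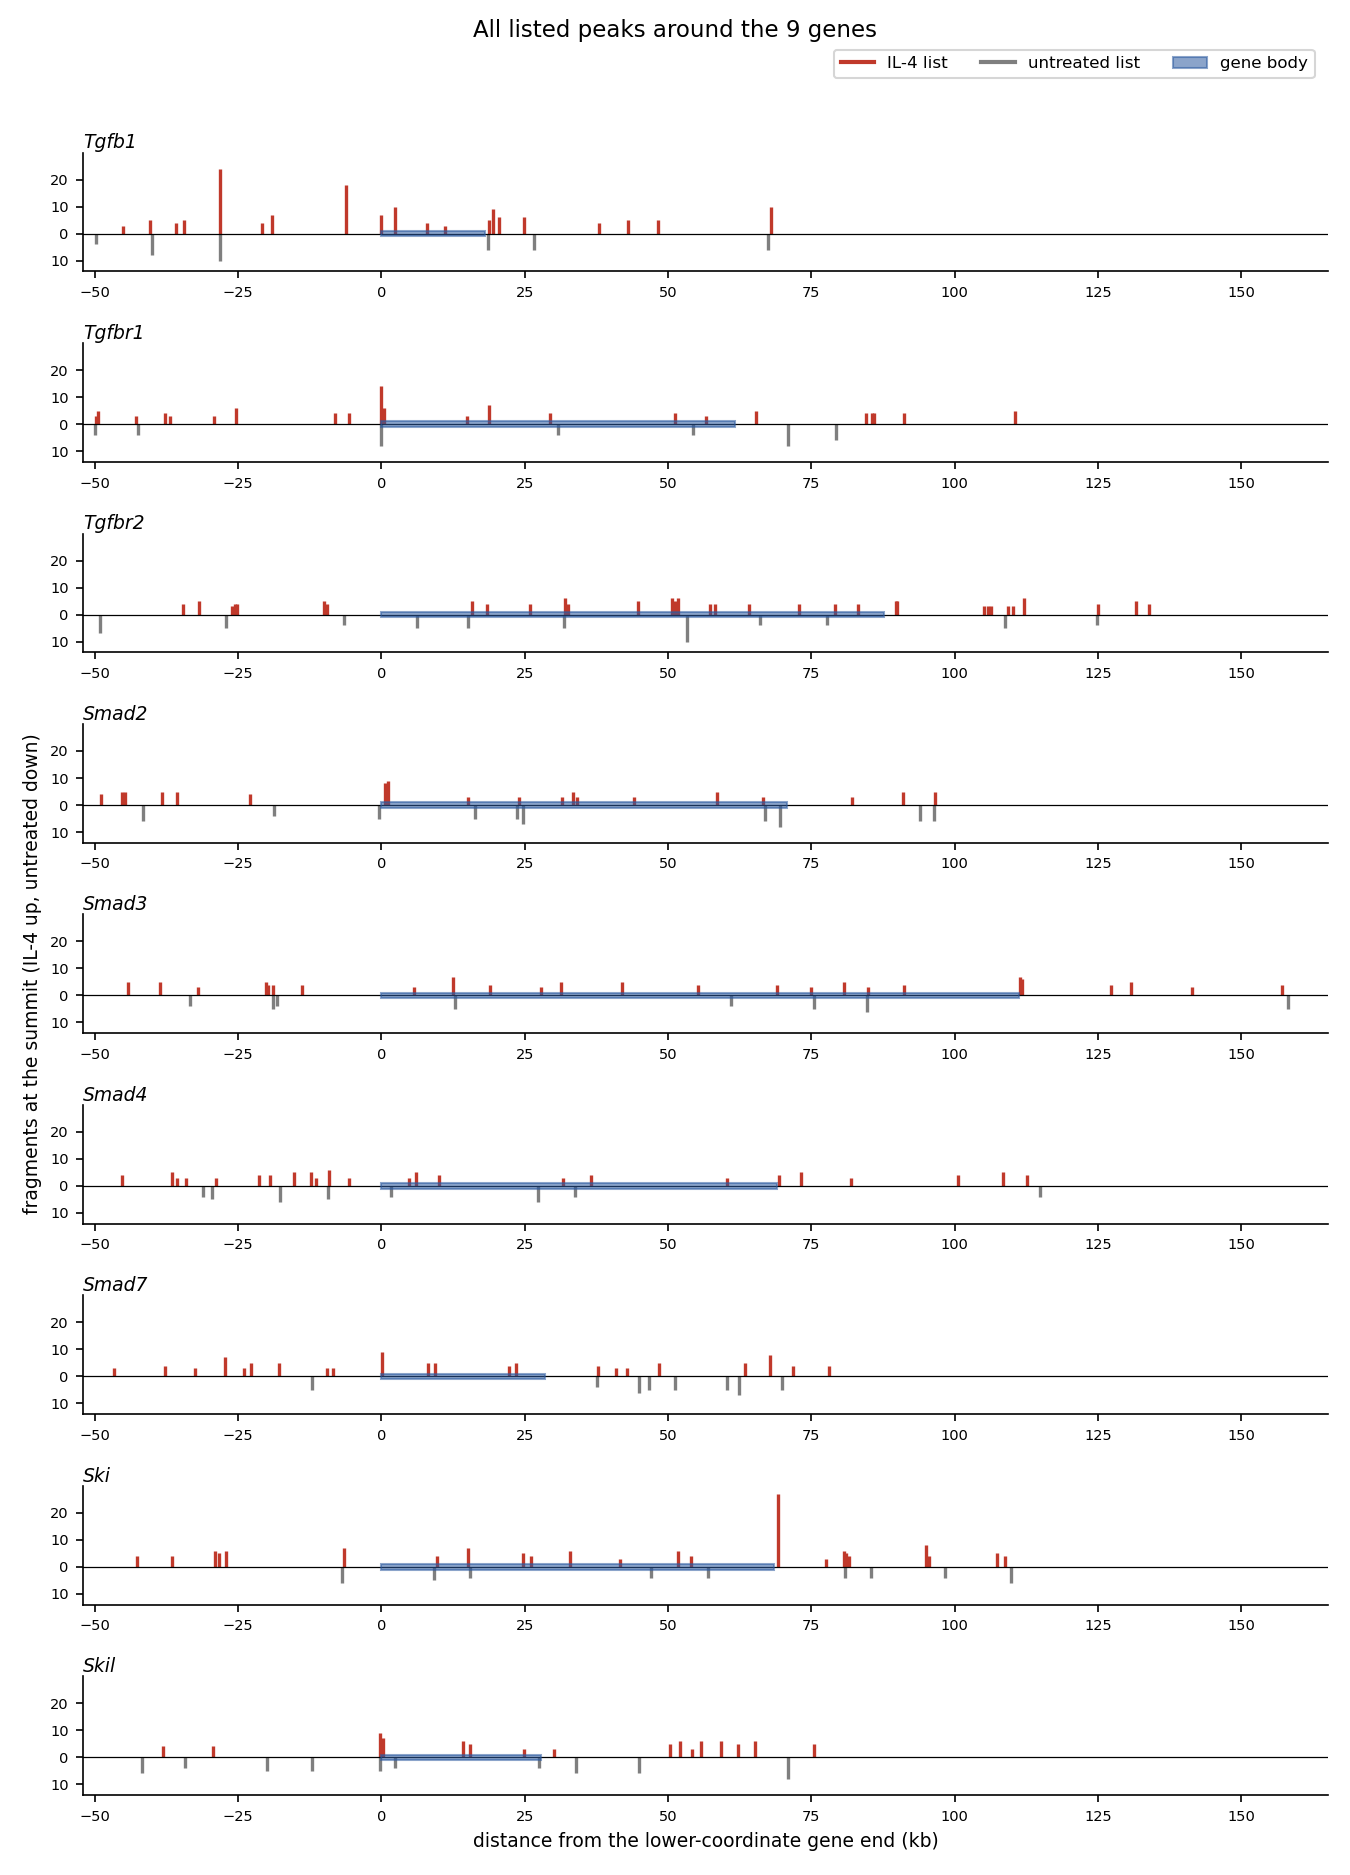
All listed peaks in the windows of the 9 genes, by distance of the summit from the lower-coordinate gene end (horizontal axis, kb). The vertical axis is the number of fragments at the summit, drawn upward for the IL-4 list (red) and downward for the untreated list (grey), and blue bars are gene bodies. The tall IL-4 peaks stand at *Ski* (27 fragments), beside *Tgfb1* (24 and 18) and at *Tgfbr1* (14), and most other peaks had 3 to 6.

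Stricter thresholds left fewer of the genes with a peak at an end. At q of at most 0.05, 6 of 9 had one with IL-4 (18.3% of all genes) and 1 of 9, *Tgfbr1*, without (4.02%). In this count *Ski*, *Skil*, *Smad2*, *Smad3* and *Smad7* were IL-4-only (5 of 9, 16.8% of all genes), since the untreated peaks of *Skil* and *Smad2* were weaker than the threshold. No member was untreated-only (2.52% of all genes), and *Tgfb1*, *Tgfbr2* and *Smad4* were in neither class (3 of 9, 79.2%). At a −log10 q of at least 5, *Ski* and *Tgfbr1* were IL-4-only (2 of 9, 2.58% of all genes), and no other member had an IL-4 gene-end peak of that strength (2.63% of all genes had one). No member had an untreated one, as a member of both lists (0.0503% of all genes), as untreated-only (0.00457%) or in all (0.0548%), and 7 of 9 were in neither list, like 97.4% of all genes. Summits close to the 1 kb limit were those of *Ski* at 729 bp, *Smad2* at 706 bp and *Tgfb1* at 702 bp on the inside, and of *Smad2* at 1220 bp and *Tgfb1* at 1300 bp on the outside, all in the IL-4 list. An untreated *Smad2* peak of 8 fragments, past q 0.05, lay outside it at 1142 bp, so the IL-4-only class of *Smad2* at that threshold rests on the limit. With a limit of 500 bp, *Ski* and *Smad2* had no gene-end peak in either list. With 3 kb, *Smad4* had one in both lists and *Tgfbr2* one in the IL-4 list alone.

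Around each of the 9 genes the IL-4 list held more peaks than the untreated list (9 of 9, 85.5% of all genes). The numbers were 20 and 6 for *Tgfb1*, 22 and 7 for *Tgfbr1* and 33 and 11 for *Tgfbr2*. For the SMAD genes they were 19 and 10 for *Smad2*, 25 and 8 for *Smad3*, 24 and 8 for *Smad4* and 22 and 8 for *Smad7*. *Ski* had 23 and 9, and *Skil* 16 and 10. On the scale log2((IL-4 peaks + 1)/(untreated peaks + 1)), the genes ran from 0.63 for *Skil* and 0.86 for *Smad2* to 1.58 for *Tgfb1*, with a median of 1.47, where the median of all genes was 0.79. Of the 9 genes, 7 were at or above 1.26, the 75th percentile of all genes, and *Skil* was the only one below the median.

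The windows ran from 118 kb (*Tgfb1*) to 211 kb (*Smad3*) in length, so counts were also taken per 100 kb. The IL-4 density was 11.1 (*Smad2*) to 17.6 (*Tgfbr2*) peaks per 100 kb, above the median of 10.8 over all genes in 9 of 9. The untreated density was 3.79 (*Smad3*) to 7.82 (*Skil*), above the median of 5.56 in 4 of 9. In these windows the ratio between the lists thus came with IL-4 densities above the median of all genes and untreated densities on both sides of theirs.

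**Figure D3:**
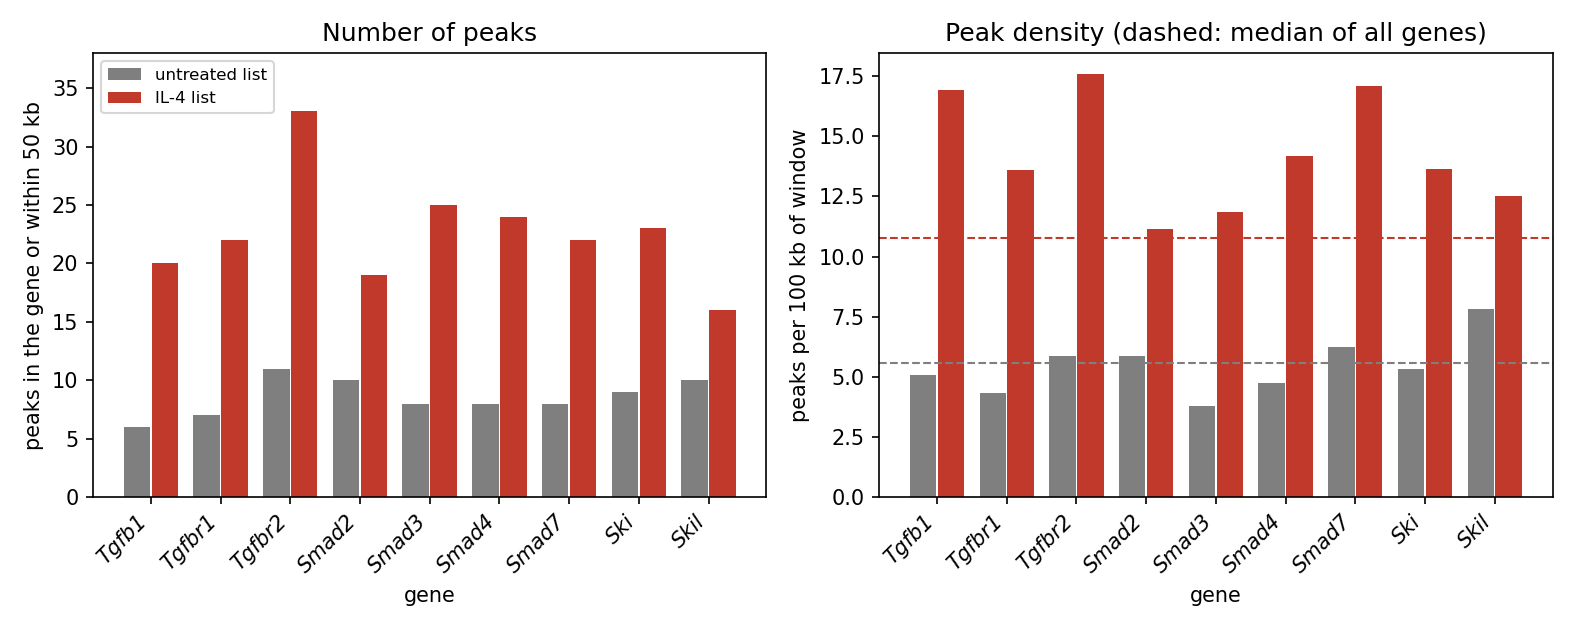
Number of peaks with a summit in the gene or within 50 kb of it (left) and the same per 100 kb of window (right). Grey is untreated and red is IL-4. Dashed lines are the medians over all protein-coding genes, 5.56 and 10.8 per 100 kb. All 9 red bars at right reach above the red line, and 4 of the grey bars reach above the grey line.

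IL-4 peaks made up 72.6% of all peaks in these windows (204 of 281, Wilson 95% interval 67.1 to 77.5), against 61.7% over both whole lists. With the IL-4 list reduced to the length of the untreated list by −log10 p, the share was 64.0%, against 50%. Counting only peaks of at least 4 fragments, which sets the same minimum for both libraries, it was 67.0% (156 of 233), against 52.2%. At q of at most 0.05 it was 77.8% (35 of 45), against 57.8%. The 4 peaks of these windows at a −log10 q of at least 5 were all in the IL-4 list: those at *Ski* and *Tgfbr1*, and those beside *Tgfb1* at *Bckdha* with *Exosc5* and at *B9d2*. Over both whole lists, 85.0% of the peaks at that threshold were IL-4 peaks. The *Ski* peak is the one on which the genes were chosen. The summits closest to the 50 kb limit were, on the inside, an IL-4 peak of 10 fragments 49921 bp from *Tgfb1* and an untreated peak of 4 fragments 49925 bp from *Tgfbr1*. On the outside they were an untreated peak of 8 fragments 50114 bp from *Tgfb1* and an IL-4 peak of 5 fragments 50248 bp from *Smad3*. The untreated summit at 50114 bp lay 193 bp from the IL-4 summit at 49921 bp, within that IL-4 peak. The limit thus counted the IL-4 peak of this site and left out that untreated peak.

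Of the 35 IL-4 peaks at q of at most 0.05, 8 lay within 1 kb of the gene's own end (22.9%, Wilson interval 12.1 to 39.0) and 4 within 1 kb of the end of another protein-coding gene. A further 10 were elsewhere inside the gene and 13 elsewhere in the window. Of the 10 such untreated peaks, the numbers were 1, 1, 3 and 5. The 8 IL-4 peaks at own ends include the *Ski* peak on which the genes were chosen. Positions were not counted over the whole lists, so nothing particular to these genes is read from these numbers. Over all peaks, whatever their q, 12 of the 204 peaks listed after IL-4 (5.88%) were at own ends, as were 5 of the 77 listed without it (6.49%, Wilson interval 2.81 to 14.3), so the IL-4 share lay within the counting interval of the untreated share.

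**Figure D4:**
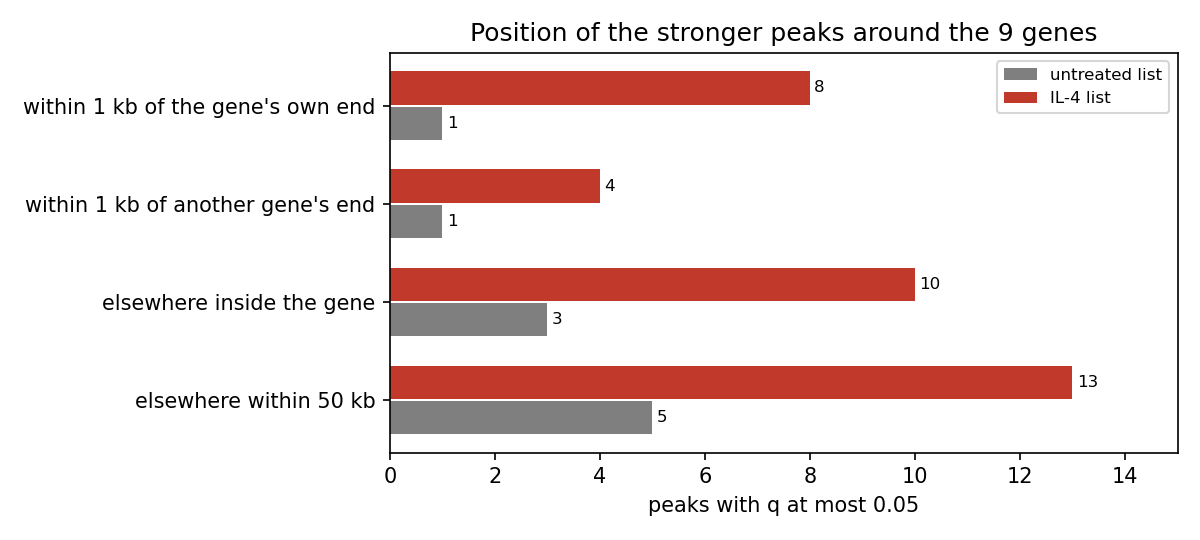
Number of peaks with q at most 0.05 (horizontal axis) by position around the 9 genes. Grey is untreated and red is IL-4. The IL-4 list had 8 at own gene ends and the untreated list 1, and the largest class in both was elsewhere within 50 kb, with 13 and 5. The 8 include the *Ski* peak on which the genes were chosen, and positions were not counted over the whole lists.

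The 2 lists shared 14 sites in these windows, counting any overlap of at least 1 bp. This was 14 of 77 untreated peaks (18.2%, Wilson interval 11.2 to 28.2; 8.73% in the whole list) and 14 of 204 IL-4 peaks (6.86%, 4.13 to 11.2; 5.42% in the whole list). With summits within 100 bp required, 6 of 77 (7.79%) remained shared, and the whole-list share by that rule was not counted. The shared site with the strongest peaks in both lists was that at *Bckdha* and *Exosc5*, followed by the start of *Tgfbr1*. Of the other 12, the site 302 bp outside *Skil* and the 3′ end of *Tgfb1* were at own gene ends, and 10 were elsewhere. At 5 of the 14 sites, 2 in the *Smad3* window and 1 each in those of *Smad2*, *Tgfb1* and *Tgfbr1*, the untreated peak had more fragments than the IL-4 peak, by 3 at most. At 2 the numbers were equal, and at 7 the IL-4 peak had more.

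The same gene-end count was taken over 58 other genes of the TGF-β and BMP pathway. Of these 27 were IL-4-only (35.5% of all genes), 7 had a peak in both lists (13.8%), 2 were untreated-only (8.93%; *Bmp4*, a ligand gene, and *Ltbp3*, a latency protein gene) and 22 had none (41.8%). The 5 with the highest −log10 q were IL-4-only, and 3 of these are target genes. *Id2*, encoding an inhibitor of DNA binding and a target of BMP signals, had 13 fragments and a −log10 q of 5.52 (chromosome 12, 25096051 to 25096531). Its relative *Id3* had 10 at 3.89, and *Cdkn2b*, a cell cycle inhibitor gene induced by TGF-β, had 7 at 2.38. *Map3k7*, encoding the kinase TAK1, had 8 at 3.32, and *Bmpr2*, the type II BMP receptor gene, had 7 at 2.58. At q of at most 0.05 the IL-4-only genes of this list numbered 11 of 58, near the 16.8% of all genes, and those with both 0 (1.5% of all genes). In this count 1, *Nedd4l*, which encodes a ubiquitin ligase, was untreated-only, with 7 fragments against 3 in a weaker IL-4 peak. The median log2 ratio of peak numbers was 0.96, and 0.79 over all genes.

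By role, and with the 9 genes included, 6 of 11 ligand genes, 5 of 9 genes of latency and release and 5 of 8 SMAD genes were IL-4-only, a class that held 35.5% of all genes. So were 3 of 10 receptor and co-receptor genes, 3 of 6 co-repressor genes and 4 of 6 genes of ubiquitin ligases and deubiquitinases. Among receptor regulators and adaptors 1 of 7 was, and among target genes 5 of 12. *Smad7* and *Skil* count under 2 roles each, as a SMAD and a co-repressor gene and again as target genes. With so few genes a role, nothing is read from the order of these counts. The inhibitory SMAD gene *Smad6* was listed in both conditions, with 6 IL-4 and 5 untreated fragments, and *Ncor1*, a co-repressor gene, likewise had 6 and 5. Of the other ligand genes, *Tgfb2* had 6 and 4.

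The genes most like *Ski* were found by distance over 4 values: the fragments of the strongest gene-end peak and the number of peaks within 50 kb, each in both libraries, as log2(value + 1). *Phf14* was closest (distance 0.32), with 22 IL-4 fragments, no untreated gene-end peak, and 22 and 10 peaks in its window. *Hpcal1* (0.51) had 21 fragments and 23 and 12 peaks, and *Farsb* (0.56) had 23 fragments and 26 and 13 peaks. With 1 library per group this likeness rests on 2 libraries.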

How the data were processed

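Each of the 2 libraries had 1 peak list, called per library. Build mm10, MACS2 2.2.7.1, DiffBind and Bowtie 0.12.8 appear, without role or order, per the submitters' processing notes. For duplicates, fragment size and control, the sources used here give nothing. The authors deposited for each peak a score (10 times −log10 p, decimals dropped), a fold enrichment ratio, −log10 p and −log10 q. No deposited −log10 p was below 2.00 in either list.

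Fragments n and background b were solved from fold = (n + 1)/(b + 1) and the Poisson probability of more than n. A whole n matched the deposited −log10 p within 0.01 for 100% of entries. The solver, gene-end and overlap counts were checked on simulated data. Entries of 1 interval with several summits (203 untreated, 654 IL-4) were reduced to the highest −log10 q. Total read depth was not used here. Intervals are exact Poisson for fragments and Wilson for shares, and cover counting error only. The Poisson intervals treat fragments as independent molecules, which PCR copies are not.

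Genes came from RefSeq GRCm38.p6, the same assembly as mm10. That gene table has no strand; strands were read from the promoter table, which held *Ski*, *Smad3*, *Tgfb1*, *Tgfbr1* and *Tgfbr2*. Other ends are named by coordinate. Members and gene lists were chosen with earlier results of these data known. All members were named, with their strongest, gene-end and q 0.05 peaks where the text turns on them, and pathway genes with a gene-end −log10 q of at least 2. Python 3.11.15, scipy 1.17.1 and statsmodels 0.14.6 were used. For 1 gene of the macrophage marker list the result is not reported here.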

Additional observations from a re-analysis of the deposited data

How the results depend on the processing

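The count of IL-4-only genes among the 9 (4) was 3 to 5 under every alternative but 1, a −log10 q of at least 5, where it was 2. With a 3 kb gene-end limit the count was again 4, with *Tgfbr2* in place of *Smad4*, which was then in both lists. The number with peaks in both lists (4) fell to 1 at q of at most 0.05 and to 0 at a −log10 q of at least 5. Among the 58 pathway genes, the IL-4-only count of 27 was 11 and 1 at these thresholds, and the count in both lists, 7, was 0 and 0. Over all genes the IL-4-only shares were 35.5%, 16.8% and 2.58%, and those in both lists 13.8%, 1.5% and 0.0503%. The pathway count in both lists was 2 with a 500 bp gene-end limit and 25 with 3 kb, against 22 and 24 IL-4-only. The shares of all genes were not counted at 500 bp and 3 kb, so nothing is read from the counts there. The IL-4 share of peaks around the 9 genes, 72.6%, was 77.8% at q of at most 0.05, 100% (4 of 4) at a −log10 q of at least 5, 64.0% with lists of equal length and 67.0% with at least 4 fragments. In the same order, the shares over both whole lists were 61.7%, 57.8%, 85.0%, 50% and 52.2%. In windows of 10 kb the share around the 9 genes was 72.4% (97 of 134). In windows of 100 kb it was 67.4% (323 of 479), nearer to the 61.7% of the whole lists. The shared part of the untreated peaks, 18.2%, was 7.79% by summits within 100 bp, 11.7% when the overlap had to reach 0.5 of the shorter peak (9 of 77) and 11.5% in windows of 100 kb (18 of 156). By any overlap it was 8.73% in the whole list, and by the stricter rules of overlap the whole list was not counted. No untreated peak of these windows had a −log10 q of 5, so that share has no value there. Stricter thresholds test fewer peaks; other causes of these shifts were not tested. Most peaks rest on 3 to 6 fragments, so counting error limits each. No paired analysis was possible because each group has 1 library.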
